A study of Mus musculus with 23 samples.

Results

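The junction genes examined here were the cadherins Cdh2 and Cdh11, the cytoplasmic linkers Ctnnb1 and Vcl, the desmosome genes Dsp, Dsg2, Jup and Pkp2, and the connexins Gja1 and Gja5. They were taken by symbol from the expression table, and all 10 were found among its 23284 genes. Their levels were read in 23 libraries, given as FPKM (fragments scaled by transcript length and by the mapped fragments of the library). Levels of different genes are set side by side on this scale, which corrects for no other difference between genes. The single cells were 16 mMSCs, which are mesenchymal stem cells from the bone marrow of C57BL/6J mice at passages 6 to 11, and 5 single HL1cm, which are cells of the mouse cardiomyocyte line HL-1 at passages 70 to 85. Each cell type also had 1 population control made from a bulk sample of the same cells (mMSC-PC and HL1cm-PC). No treatment was compared between libraries. The mMSCs were bought and grown on gelatin, the HL1cm were grown with norepinephrine on fibronectin and gelatin and carried a green dye, and the single cells of both kinds had been brought into suspension and caught on a microfluidic chip before lysis. HL-1 is 1 immortalised line, derived from an atrial tumour of transgenic mice, and the mMSCs are cultured cells, so neither set was a sample of heart or marrow tissue.

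In heart muscle, cells meet end to end at the intercalated disc. There, adherens junctions hold the actin of neighbouring cells together through cadherins and catenins, desmosomes tie the desmin filaments together through desmosomal cadherins, plakoglobin, plakophilin and desmoplakin, and gap junctions built of connexins let current pass from cell to cell. Mesenchymal cells also make cadherin contacts and connexin 43 channels, while desmosomes are known mainly from epithelia and heart muscle.

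The labels name no separate cultures, and each cell type therefore counted as 1 sample and no test between types was made. Differences are given in mean log2 FPKM, HL1cm minus mMSC, after values under 1 FPKM had been set to 1, and a gene was called higher or lower at a difference of 1 (2-fold) or more. A value of 0 is reported as listed at 0, since 5 genes were listed at 0 in 1 cell while reaching at least 100.0 FPKM in the other 20 cells. The table holds no read counts, so the depth behind a value is unknown. Genes reaching 1 FPKM numbered 5178 to 7241 in the mMSCs, 6428 to 7010 in the HL1cm, 9625 in mMSC-PC and 9881 in HL1cm-PC. mMSC9 and mMSC15 had the fewest of these genes, and also the fewest aligned read pairs in the study's alignment statistics. Marker genes were read as a check of the labels. All 9 cardiomyocyte markers were higher in HL1cm (summed level 30746 to 57468 FPKM per cell against 0 to 65.4 in the mMSCs), and all 8 mesenchymal markers were lower (0.858 to 8.93 against 775 to 5180 FPKM). Over all genes compared, 21.6% were higher and 21.4% lower. Myl7 alone had 20292 to 46701 FPKM in the HL1cm, and Nppa was above 0 in 2 of 5 HL1cm. Nppa and Ryr2 reached 1 FPKM in no mMSC, and 5 mesenchymal markers were listed at 0 in all HL1cm. These could differ only in the direction seen. Of 7 macrophage markers, Ptprc, Emr1 and Lyz2 were listed at 0 in all 21 cells, but Cd14 was above 0 in 15 of 16 mMSCs (highest 337 FPKM) and Csf1r in 8 of 16 (highest 32.6 FPKM), with both at 0 in every HL1cm; their part in the results was not tested. Of 5 endothelial markers, Cdh5, Tek and Emcn were at 0 in all 21 cells, and the summed level of the list was at most 10.8 FPKM in an mMSC and 13.8 FPKM in an HL1cm.

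HL1cm carried Dsp, Dsg2 and Jup in 5 of 5 cells, and all 16 mMSCs were listed at 0 for each of them. Cdh11 was present in 16 of 16 mMSCs and in 1 of 5 HL1cm, whereas Cdh2 was present in cells of both types. Gja1 was the most abundant of the 10 genes in 14 of 16 mMSCs and in 5 of 5 HL1cm, with overlapping ranges. Gja5 was listed at 0 in 20 of the 21 single cells and had 9.80 FPKM in HL1cm-PC.

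**Figure D1:**
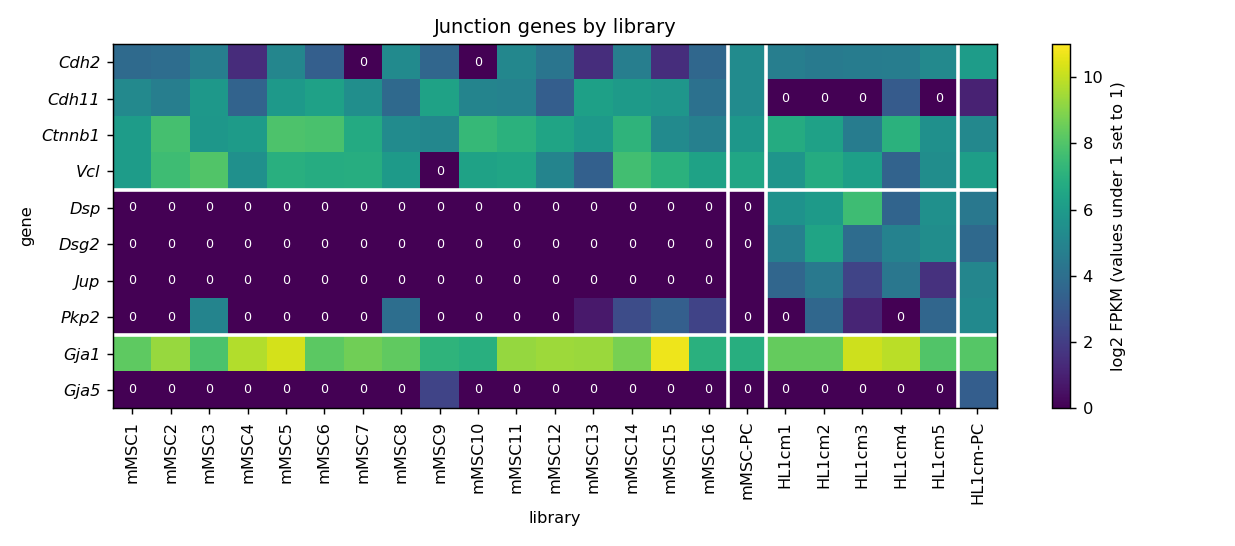
Level of each junction gene (rows) in each library (columns), as log2 FPKM with values under 1 set to 1; cells marked 0 are listed at 0 and white lines part the cell types and the gene classes. Dsp, Dsg2 and Jup are above 0 in all 5 HL1cm and marked 0 in all 16 mMSCs, and Gja1 is above 0 in every library.

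Of the 10 genes, 9 reached 1 FPKM in at least 2 of the 21 single cells and entered the comparison over the whole table; Gja5 did not. In that comparison 4 of the 9 were higher in HL1cm (Cdh2, Jup, Dsp and Dsg2), against 21.6% of the 11850 genes compared. Cdh11 was the 1 gene of the 9 that was lower, against 21.4% of all genes. The 2556 higher and 2538 lower genes behind these shares became 2098 and 2984 after scaling to TPM, 2142 and 3011 after scaling to Gapdh, and 2971 and 2166 by the median ratio, while the same number of members stayed higher (4) and lower (1). The median difference was 0.58 over the 9 genes and -0.08 over all genes. Every HL1cm lay above every mMSC for 3 of the 9 genes (Jup, Dsp and Dsg2), against 1.77% of all genes, and these 3 had entered the comparison through their HL1cm values alone and could only be higher, so the count of 4 and the median of 0.58 say nothing particular of the 9 genes. Every HL1cm lay below every mMSC for Cdh11, against 2.19% of all genes. Cdh11 reached 1 FPKM in only 1 HL1cm and had entered the comparison through its mMSC values. Its lower call and its separation therefore say nothing particular of the 9 genes either.

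Cdh2 encodes N-cadherin, the classical cadherin of the intercalated disc (18:16588877-16809246, mm10). Its level in HL1cm1 to HL1cm5 was 26.2, 23.4, 24.6, 25.0 and 36.2 FPKM, a spread of 1.55-fold from lowest to highest. In the mMSCs the lowest value was 0 (mMSC7 and mMSC10), the median 13.3 and the highest 38.3 FPKM (mMSC8). The HL1cm sat within the upper range of the mMSCs, where the values above 0 spread 14.7-fold, and HL1cm5 stood somewhat above the other 4 HL1cm. Cdh2 was above 0 in 14 of 16 mMSCs (87.5%, exact Clopper-Pearson 95% interval 61.7 to 98.4%) and in 5 of 5 HL1cm (100%, 47.8 to 100%); these intervals and those that follow cover counting error only. The difference in mean log2 FPKM was 1.51, 1.05 over the cells above 0 alone, and 0.74, which is no call, with values under 10 FPKM set to 10.

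Cdh11 encodes cadherin-11, the cadherin first known from osteoblasts and mesenchyme (8:102632095-102785493). In the mMSCs it ran from 9.89 (mMSC12) over a median of 39.8 to 80.9 FPKM (mMSC9), with a mean log2 of 5.15 ± 1.02 (SD, n = 16 cells). Of the HL1cm, HL1cm4 had 8.88 FPKM and the other 4 were listed at 0. The ranges did not overlap, but the gap between HL1cm4 and mMSC12 was narrow, and after scaling to equal sums per library (TPM) they overlapped. Cdh11 was above 0 in 16 of 16 mMSCs (exact 95% interval 79.4 to 100%) and in 1 of 5 HL1cm (20%, 0.505 to 71.6%). The difference was -4.52 with the zeros set to 1 FPKM, -5.15 without HL1cm4, and -2.0 when the cells above 0 alone were used, that is HL1cm4 against the 16 mMSCs.

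The balance of the cadherins therefore ran in opposite directions. Cdh11 exceeded Cdh2 in 13 of 16 mMSCs, the exceptions being mMSC8, mMSC11 and mMSC12, and the ratio of Cdh11 to Cdh2 in the 14 mMSCs with both ran from 0.355 to 27.8 with a median of 2.35. Cdh2 exceeded Cdh11 in 5 of 5 HL1cm. Across the 16 mMSCs the log2 levels of the cadherins were nearly unrelated (Pearson's r = -0.07, n = 16 cells of 1 chip-based experiment). Thus mMSCs with little Cdh2 were found at both ends of the Cdh11 range, such as mMSC4 (2.60 and 11.4 FPKM of Cdh2 and Cdh11) and mMSC13 (2.75 and 76.4 FPKM).

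**Figure D2:**
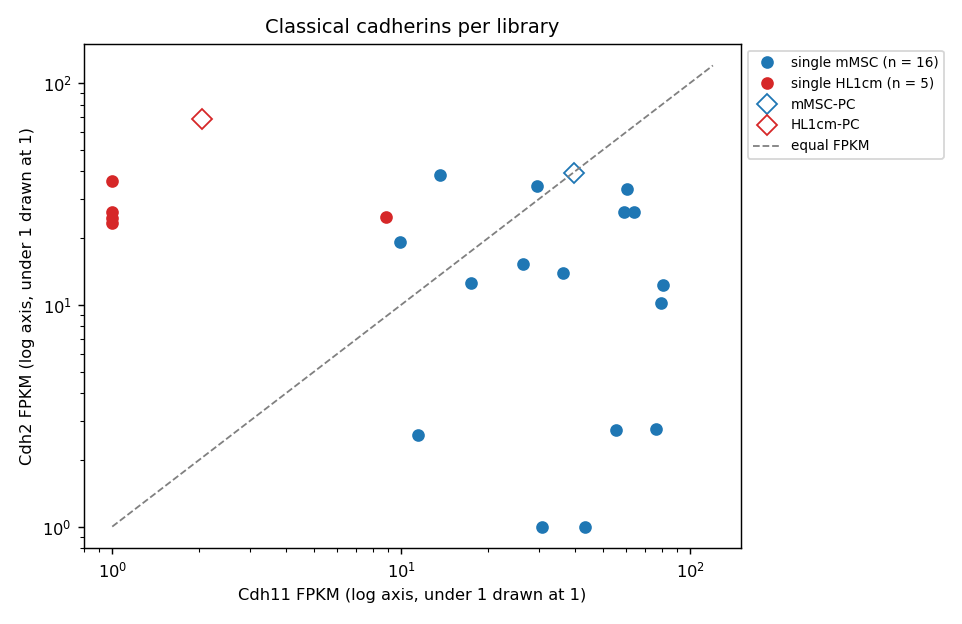
Cdh2 (y axis) against Cdh11 (x axis) in each library, both as FPKM on log axes with values under 1 drawn at 1; filled points are single cells, diamonds are population controls and the dashed line marks equal levels. The 5 HL1cm lie above the line and 13 of 16 mMSCs lie below it.

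Ctnnb1 encodes beta-catenin, which joins classical cadherins to alpha-catenin and is also the transcriptional partner in Wnt signalling (9:120933400-120960507). In HL1cm1 to HL1cm5 it had 108, 79.0, 24.5, 132 and 46.5 FPKM. In the mMSCs it ran from 27.8 (mMSC16) over a median of 77.5 to 242 FPKM (mMSC5). The medians were close and the ranges overlapped: mean log2 was 6.05 ± 0.98 in HL1cm (SD, n = 5 cells) and 6.41 ± 1.02 in mMSCs (SD, n = 16 cells), a difference of -0.36, smaller than the SD between cells of either type. It was -0.0007 without HL1cm3, -0.61 without HL1cm4 and -0.70 after scaling to TPM. Ctnnb1 and Gja1 were the members above 0 in all 21 single cells.

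Vcl encodes vinculin, which anchors actin at cadherin contacts and at focal adhesions (14:20929383-21033676). It had 52.9, 110.2, 74.4, 11.4 and 42.0 FPKM in HL1cm1 to HL1cm5. In the mMSCs it was listed at 0 in mMSC9, had a median of 85.4 and reached 256 FPKM in mMSC3. The ranges overlapped and the difference of -0.47 lay within the SD of 1.24 between the HL1cm; it was 0.03 without HL1cm4 and -0.79 without HL1cm2. Vcl was above 0 in 15 of 16 mMSCs (93.8%, exact 95% interval 69.8 to 99.8%) and 5 of 5 HL1cm. Its level was above that of Ctnnb1 in 6 of 16 mMSCs and in 2 of 5 HL1cm.

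Dsp encodes desmoplakin, the plaque protein that binds the desmosome to intermediate filaments (13:38151294-38198577). HL1cm1 to HL1cm5 had 48.8, 64.3, 194, 11.7 and 45.9 FPKM. All 16 mMSCs were listed at 0, as was mMSC-PC. The HL1cm values spread 16.6-fold, the widest spread of the desmosome genes present in all 5 cells.

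Dsg2 encodes desmoglein-2, the main desmosomal cadherin of heart muscle (18:20558074-20604526). Its level was 27.8, 86.1, 14.6, 29.1 and 41.6 FPKM in HL1cm1 to HL1cm5. It too was listed at 0 in all 16 mMSCs and in mMSC-PC. HL1cm3, the highest cell for Dsp, was the lowest for Dsg2, and Dsp exceeded Dsg2 in 3 of 5 HL1cm.

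Jup encodes plakoglobin, a relative of beta-catenin that sits in both desmosomes and adherens junctions (11:100368856-100397839). HL1cm1 to HL1cm5 had 12.5, 21.5, 4.79, 20.4 and 2.94 FPKM, against 0 in all 16 mMSCs and 0.744 FPKM in mMSC-PC. Every HL1cm had more Ctnnb1 than Jup, by 3.68- to 15.8-fold (median 6.45). For each of Dsp, Dsg2 and Jup, 0 of 16 mMSCs allows a share of up to 20.6% of cells with a listed value above 0 by the exact 95% interval, which does not cover cells that express the gene and were listed at 0. No fold is given against a group listed at 0, and Jup was no longer called with values under 10 FPKM set to 10 (difference 0.49).

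Pkp2 encodes plakophilin-2, an armadillo protein of the desmosomal plaque (16:16213345-16272712), and in the single cells it was not split by cell type as the other desmosome genes were. It had 0, 12.8, 2.18, 0 and 12.3 FPKM in HL1cm1 to HL1cm5. Of the mMSCs 6 were above 0, with a highest value of 31.0 FPKM in mMSC3, and the other 10 were listed at 0. The highest mMSC and mMSC8 (15.6 FPKM) lay above every HL1cm. The shares above 0 were 37.5% of mMSCs (exact 95% interval 15.2 to 64.6%) and 60.0% of HL1cm (14.7 to 94.7%), which overlap, and the difference of 0.58 ran from 0.08 without HL1cm2 to 0.997 without HL1cm1 or HL1cm4, none of them a call, and was -0.15 over the cells above 0 alone. Thus each HL1cm carried 3 or 4 of the desmosome genes Dsp, Dsg2, Jup and Pkp2 and each mMSC carried 0 or 1, and where an mMSC carried 1 it was Pkp2. The summed level of the 4 genes was 61.3 to 215 FPKM (median 103) per HL1cm and 0 to 31.0 FPKM per mMSC.

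Desmosomes are also an epithelial structure, so epithelial markers were read in the same cells. Of the 5 markers, Krt18 was above 0 in 5 of 5 HL1cm (17.0 to 298 FPKM), Epcam in 3 of 5 (highest 14.2 FPKM) and Krt8 in 1 of 5, while Krt19 was listed at 0 in all HL1cm and above 0 in 9 of 16 mMSCs. Cdh1, the defining epithelial cadherin, was listed at 0 in every library. The summed level of the markers was 24.6 to 312 FPKM in HL1cm and 0 to 180 FPKM in mMSCs, and their part in the desmosome result was not tested.

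Gja1 encodes connexin 43, the main connexin of working ventricular muscle and a common connexin of mesenchymal cells (10:56377300-56390419). HL1cm1 to HL1cm5 had 341, 333, 1131, 937 and 256 FPKM. The mMSCs ran from 121 (mMSC10) over a median of 416 to 1674 FPKM (mMSC15). All HL1cm values lay within the mMSC range, and mean log2 was 8.96 ± 0.97 in HL1cm (SD, n = 5 cells) and 8.70 ± 1.12 in mMSCs (SD, n = 16 cells). The difference of 0.26 was smaller than either SD, and it ran from -0.075 after scaling to TPM to 0.57 by the median ratio, and from -0.03 without HL1cm3 to 0.50 without HL1cm5. Ranked by FPKM within its cell, Gja1 stood between places 57 and 908 in the mMSCs (median 305.5) and between places 85 and 380 in the HL1cm (median 308), where place 1 is the most abundant gene.

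Gja5 encodes connexin 40, the connexin of atrial muscle, the conduction system and arterial endothelium (3:97032402-97053634). It was listed at 0 in 5 of 5 HL1cm, which allows a share of up to 52.2% of cells with a listed value above 0 by the exact 95% interval and does not cover missed detection. Of the mMSCs, mMSC9 alone had a value, 4.82 FPKM (6.25% of 16 cells, interval 0.158 to 30.2%). mMSC9 is among the libraries with the fewest genes detected.

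**Figure D3:**
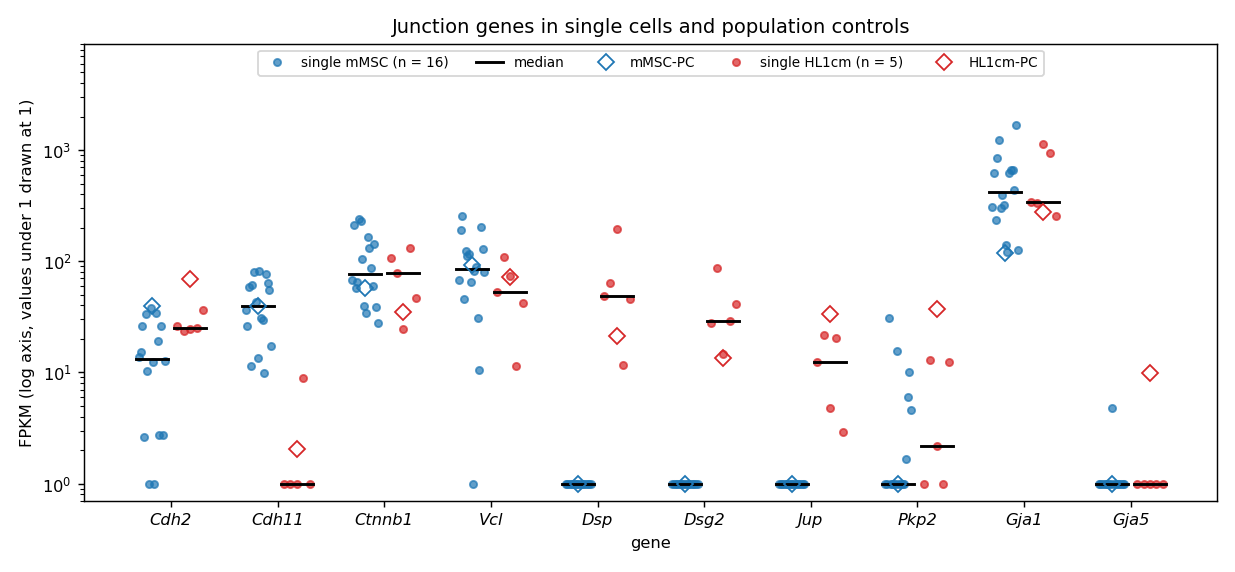
FPKM of each junction gene on a log axis, with values under 1 drawn at 1; points are single mMSCs (n = 16) and single HL1cm (n = 5), bars are medians and diamonds are the population controls. The cell types are apart for Dsp, Dsg2, Jup and Cdh11 and overlap for Cdh2, Ctnnb1, Vcl, Pkp2 and Gja1; Gja5 is at or above 1 in 1 mMSC and in HL1cm-PC only.

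By median level the order in HL1cm was Gja1, Ctnnb1, Vcl, Dsp, Dsg2, Cdh2, Jup, Pkp2, with Cdh11 and Gja5 at 0. Gja1 lay apart from Ctnnb1 in every HL1cm (lowest Gja1 256 FPKM, highest Ctnnb1 132 FPKM), and Cdh2 lay apart from Jup (lowest Cdh2 23.4, highest Jup 21.5 FPKM). The neighbours from Ctnnb1 down to Cdh2 overlapped in range and are not separated beyond the spread between cells. In the mMSCs the order was Gja1, Vcl, Ctnnb1, Cdh11, Cdh2, and no neighbours in it had ranges that were apart. Gja1 was nevertheless above Vcl in 15 of 16 mMSCs, and Cdh11 above Cdh2 in 13 of 16.

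The stretch before the transcription start was read for the genes at the extremes of these patterns: Dsp, present in HL1cm only among the single cells, Gja1, abundant in both types, and Gja5, listed at 0 in nearly all cells. RefSeq promoters (GRCm38.p6, the same assembly as mm10) were at hand for 6 of the 10 genes. The 250 bases upstream of the start are shown 5′ to 3′ on the plus strand, in lower case, with capitals marking motif matches. The windows are chr13:38151044-38151293 for Dsp, chr10:56377050-56377299 for Gja1 and chr3:97032152-97032401 for Gja5.
Dsp: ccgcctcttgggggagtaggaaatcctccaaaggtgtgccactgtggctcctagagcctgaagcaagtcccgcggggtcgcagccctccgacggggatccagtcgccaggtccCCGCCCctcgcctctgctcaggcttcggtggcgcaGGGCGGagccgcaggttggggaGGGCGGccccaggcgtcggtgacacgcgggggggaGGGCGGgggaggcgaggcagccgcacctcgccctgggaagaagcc
Gja1: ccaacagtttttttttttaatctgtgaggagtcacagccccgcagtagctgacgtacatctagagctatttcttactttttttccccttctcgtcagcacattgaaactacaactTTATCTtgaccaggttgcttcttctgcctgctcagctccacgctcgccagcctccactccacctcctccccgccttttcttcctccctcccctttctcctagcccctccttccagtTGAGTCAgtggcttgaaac
Gja5: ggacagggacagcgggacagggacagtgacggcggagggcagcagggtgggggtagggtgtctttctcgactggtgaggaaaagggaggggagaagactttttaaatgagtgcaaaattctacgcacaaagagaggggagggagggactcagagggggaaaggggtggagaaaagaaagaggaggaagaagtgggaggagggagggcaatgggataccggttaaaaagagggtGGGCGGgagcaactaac

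The Dsp window was 72.4% G and C with 22 CG pairs, against medians of 52.4% and 6 over all 32851 RefSeq mouse promoter windows of the same length. The Gja1 window had 50.0% and 6 CG pairs, and the Gja5 window 56.4% and 7. Capitals in Dsp mark 4 matches to the Sp1 motif GGGCGG, read on both strands, and in Gja5 they mark 1; 32.7% of all windows hold this motif. Gja1 had no match to it and held 1 GATA motif (AGATAA, on the minus strand; in 9.99% of all windows) and 1 AP-1 motif (TGANTCA; in 6.75%). None of these 3 windows held the letters of the TATA box (TATAAA, in 12.4% of all windows), MEF2 (3.20%), T-box (AGGTGTGA, 1.12%), NKX2-5 (TNAAGTG, 10.1%) or CCAAT (33.8%). These matches describe the letters only, and no motif overlapped another.

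In the population controls, each made from many cells, fewer cells carrying a gene and less RNA per cell cannot be told apart. Gja1 had 119.8 FPKM in mMSC-PC, just below the lowest single mMSC and 2.19 lower on the log2 scale than the mean of the cells. It was the 1 member below every mMSC, against 2.17% of 10867 genes, and it was no longer below all of them after scaling to TPM or by the median ratio. In HL1cm-PC Gja1 had 277 FPKM, within the range of the HL1cm. There it was below every HL1cm by the median ratio, after scaling to Gapdh and without HL1cm5. Gapdh, a glycolytic enzyme used as a reference, was 1.38 higher on the log2 scale in mMSC-PC than in the mean mMSC and 0.28 higher in HL1cm-PC than in the mean HL1cm, and the ratio of Gja1 to Gapdh was 0.218 in mMSC-PC against 0.396 to 5.85 in the mMSCs.

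Cdh2 lay above every single cell of its type in both controls, as did Jup. All 16 mMSCs were listed at 0 for Jup, so any value above 0 in mMSC-PC would lie above them. Its level there was 0.744 FPKM, under 1 FPKM, and the share of genes given below for mMSC-PC does not cover Jup. Cdh2 had 39.5 FPKM in mMSC-PC and 68.5 FPKM in HL1cm-PC, 1.34 above the mean of the cells on the log2 scale in each case, while the median of all genes was 0 in mMSC-PC and 0.49 in HL1cm-PC on this measure, and 8.60% of genes in mMSC-PC and 29.0% of 8244 genes in HL1cm-PC lay above every cell. Scaling to Gapdh turned the mMSC-PC difference to -0.0895, and Cdh2 was then no longer above every mMSC. In HL1cm-PC the difference was 1.94 after scaling to TPM, 0.78 by the median ratio and 0.93 after scaling to Gapdh. Cdh2 lay above every HL1cm under each of these. Cdh11 had 39.7 FPKM in mMSC-PC, a log2 difference of -0.13 from the mean of the mMSCs and of -1.61 after scaling to Gapdh. In FPKM, mMSC-PC carried the cadherins at a ratio of 1.01. In HL1cm-PC Cdh11 had 2.05 FPKM, and Cdh2 exceeded it 33.4-fold.

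Every member was above 0 in HL1cm-PC, whereas the single HL1cm had 7 or 8 of the 10. Jup (33.5 FPKM) and Pkp2 (37.0 FPKM) lay above every HL1cm, as did 29.0% of genes, and Gja5 was at 9.80 FPKM with all 5 cells listed at 0. Dsp (21.1 FPKM) lay within the range of the cells, and Dsg2 (13.4 FPKM) lay below every HL1cm, as did 3.41% of genes. After scaling to TPM or to Gapdh, Dsg2 was no longer below all of them. Without HL1cm4, Dsp too was below every remaining HL1cm. The desmosome genes thus moved in both directions against the single cells, while their summed level of 105 FPKM was close to the median of 103 in the cells. The ratio of Ctnnb1 to Jup was 1.04 in HL1cm-PC, below the lowest ratio in a single cell. In mMSC-PC Pkp2 was listed at 0, although 6 of 16 mMSCs were above 0. Vcl (91.8 and 72.6 FPKM) and Ctnnb1 (57.3 and 34.7 FPKM) lay within the range of the cells in mMSC-PC and HL1cm-PC. By the median ratio or without HL1cm3, Ctnnb1 in HL1cm-PC was below every HL1cm.

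Of 67 other junction genes looked up, 37 entered the comparison, of which 17 were higher in HL1cm, 6 lower and 14 neither, with a median difference of 0.78; the shares over all genes are those given above (21.6% and 21.4%). Among the 17 higher genes, 9 were listed at 0 in every mMSC, and of the 6 lower genes 2 were listed at 0 in every HL1cm. Genes of either kind entered the comparison through the cell type in which they were high, and could differ only in that direction, so the counts and the median say nothing particular of the list. The tight junction and ion channel partners held 5 higher genes and no lower gene of 10 compared, and the focal adhesion and actin linkers held 4 of each among 12. The adherens junction list held 5 higher, with Cdh13 counted among them, and 2 lower of 10. Desmosome genes held 2 higher of 3, and gap junction genes 1 higher of 2.

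The ranges of the cell types were apart for 6 of these genes. Of these, 5 were higher in HL1cm (against 1.77% of all genes) and 1 was lower (against 2.19%). The 5 that were higher had, like Jup, Dsp and Dsg2, entered the comparison through their HL1cm values alone, since they were listed at 0 in all 16 mMSCs, and their values are given in the order HL1cm1 to HL1cm5. Des, the desmin filament anchored at desmosomes, had 89.1, 72.4, 131, 105 and 38.6 FPKM. Actn2, the sarcomeric alpha-actinin, had 22.9, 64.6, 27.3, 91.2 and 12.3 FPKM, and Ldb3, its partner at the Z-disc, had 73.2, 28.7, 34.8, 22.6 and 52.7 FPKM. These 3 genes serve the muscle cytoskeleton as well as the junction. Cav3, the muscle caveolin, had 106, 175, 133, 286 and 129.8 FPKM. F11r, the junctional adhesion molecule JAM-A, had 111, 160.1, 121, 182 and 31.9 FPKM. Tes, a LIM-domain protein of focal adhesions, was the gene apart in the other direction, with 68.1 to 156 FPKM (median 104) in the mMSCs and 0 in all 5 HL1cm. Tes had entered the comparison through its mMSC values alone.

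Some further genes were picked out after their values were seen, since they belong to the same structures or gene families as the 10 members. Gjc1, which encodes connexin 45, had 132, 31.0, 0, 71.6 and 23.1 FPKM in HL1cm1 to HL1cm5 and was above 0 in 7 of 16 mMSCs (highest 39.5 FPKM), a difference of 3.13 that was 2.51 without HL1cm1 and 4.27 without HL1cm3. Ctnna1, the alpha-catenin that links Ctnnb1 to actin, was above 0 in all 21 cells with a difference of 0.67, which is no call. Cdh13, the membrane-anchored T-cadherin, had 69.3, 50.9, 203, 29.6 and 0 FPKM in HL1cm1 to HL1cm5 and was above 0 in 2 of 16 mMSCs, a difference of 4.22 that was 3.52 without HL1cm3, 5.44 without HL1cm5 and 0.92, which is no call, over the cells above 0 alone. Lmo7, a LIM-domain protein of adherens junctions, had 9.49 to 40.4 FPKM in the HL1cm and was above 0 in 4 of 16 mMSCs. Its difference of 3.72 was 1.54 over the cells above 0 alone and 1.02 with values under 10 FPKM set to 10. Zyx and Actn1, of focal adhesions and stress fibres, were lower in HL1cm by differences of -2.59 and -1.91, with overlapping ranges. The difference of Zyx was -1.73 without HL1cm3 (4.31 FPKM) and -3.44 without HL1cm2 (493 FPKM). Pkp4, a plakophilin relative also found at adherens junctions, was above 0 in 13 of 16 mMSCs (median 5.47 FPKM) and had 14.6 to 41.8 FPKM in the HL1cm, a difference of 2.22 that was 0.99, which is no call, with values under 10 FPKM set to 10.

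**Figure D4:**
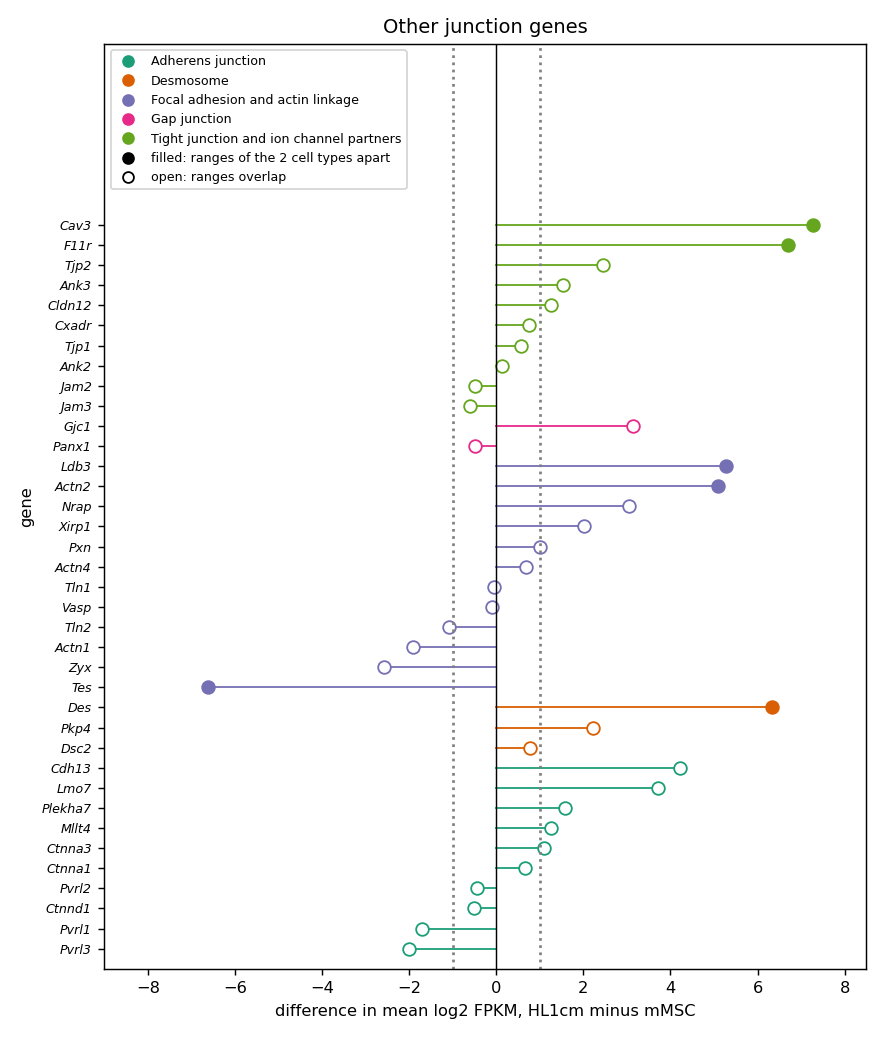
Difference in mean log2 FPKM, HL1cm minus mMSC, for the 37 other junction genes compared, coloured by class; filled points have ranges of the cell types that are apart, open points overlap and the dotted lines mark differences of 1 and -1. Cav3, F11r, Des, Ldb3 and Actn2 lie to the right and Tes to the left as filled points.

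Among the 16 mMSCs, the 5 members that reached 1 FPKM in 12 or more cells (Cdh2, Cdh11, Gja1, Vcl and Ctnnb1) formed 10 pairs, whose Pearson's r of log2 levels had a median of 0.08 (0.28 after scaling to TPM and 0.24 without mMSC9 and mMSC15). All cells came from 1 chip-based experiment, so r is given as a description over 16 cells. In FPKM over the 16 cells, Vcl and Ctnnb1 gave the highest r, 0.45 (Spearman's rho 0.41). It was 0.27 without mMSC9 and mMSC13, the cells farthest from the median of Vcl. Both also rose with the number of genes detected in a cell (r = 0.75 for Vcl and 0.56 for Ctnnb1, and 0.71 and 0.41 over 14 cells without mMSC9 and mMSC15); the part of this in their pairing was not tested. Gja1 showed no such relation (r = 0.10). For Cdh2 r was 0.25, and 0.42 over the 14 cells. For Cdh11 it was -0.20, and 0.36 over the 14 cells. The pairings moved with the cells and the scaling used. For Gja1 and Ctnnb1 r was 0.24, and 0.64 without mMSC10 and mMSC15. For Cdh11 and Ctnnb1 it was 0.20, and 0.54 after scaling to TPM. The highest pair changed as well. After scaling to TPM it was Gja1 and Ctnnb1 (0.57, against 0.56 for Vcl and Ctnnb1). Without mMSC9 and mMSC15 it was Cdh11 and Ctnnb1 (0.44, against 0.38 for Vcl and Ctnnb1).

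The genes whose log2 levels ran most like each member over the 16 mMSCs were drawn from 4679 genes that reached 1 FPKM in 12 or more cells. For Cdh2 they were Phf6 (r = 0.87), Sema3e (0.77) and Casp8ap2 (0.73), and for Cdh11 they were Abl2 (0.78), Fam49b (0.76) and Herpud2 (0.72). For Gja1 they were Trap1 (0.81), Cd164 (0.80) and Bzw1 (0.79), for Ctnnb1 Atm (0.81), Tshz3 (0.77) and Slc5a3 (0.76), and for Vcl 1810013L24Rik (0.88), Alyref (0.86) and Arl5a (0.86). No junction gene was among them. Only 5 members and few of the 67 other junction genes were among the 4679 genes, so this absence says nothing particular of junction genes. The highest values of so many genes over 16 cells are a description. Without mMSC9 and mMSC13, r with Vcl was 0.42 for Alyref, 0.68 for 1810013L24Rik and 0.70 for Arl5a. For the other members, leaving out the cells farthest from the member's median lowered r for every gene named but Bzw1 (0.80). The lowest was 0.57, for Herpud2 with Cdh11. Atm, Tshz3 and Slc5a3 had medians of 1.73, 4.73 and 3.08 FPKM in the mMSCs, near the floor of 1 FPKM.

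For 5 of the 10 genes the GENCODE M21 annotation places exons of a gene on the opposite strand over their own: Vcl shares 2090 bases with Ap3m1, Ctnnb1 759 with Ulk4, Dsp 499 with Gm10129, Dsg2 330 with Gm16090 and Gja5 165 with Gpr89. The library kit is not stated to keep the strand, so reads from the shared bases cannot be told apart.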

How the data were processed

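The authors captured single cells on 1 Fluidigm C1 chip type, made cDNA by SMARTer chemistry, built libraries by Nextera XT, sequenced read pairs on a MiSeq, mapped them to mm10 with TopHat 2.0.12 and computed FPKM with Cufflinks 2.2.1. The deposited table holds these FPKM values per gene for 16 mMSCs, 5 HL1cm and 1 population control of each type, with no read counts, so the depth per value is unknown and no count model was used.

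From it, with scipy 1.17.1, pandas 2.3.3 and numpy 2.4.6 under Python 3.11.15 (figures with matplotlib 3.10.9), differences in mean log2 FPKM were computed over genes that reached 1 FPKM in 2 or more of 21 single cells, with values under 1 set to 1 and a call at 2-fold. No p-values were computed, since each cell type was 1 sample. The script was tested on simulated data. Shares have exact (Clopper-Pearson) 95% intervals. The alternatives concerned the floor, the scaling (TPM, median ratio, Gapdh), the filter, the call and cells left out. Named genes were all 10 members, other junction genes called with ranges apart (at most 10 per direction), and the 3 genes of highest r per member; exceptions are marked as picked after their values were seen. The members and lists were chosen with earlier results of these data known. Gene positions and promoter sequences are from RefSeq GRCm38.p6. The cell clusters of the study were not used. From the junction lists, 1 gene was left out and is not reported here.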

Additional observations from a re-analysis of the deposited data

Results flagged for a closer look

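In groups of 5, values were taken as log2 FPKM with values under 1 set to 1. A cell was marked when its gap to the nearest cell, divided by the group's range, exceeded Dixon's 95% critical value of 0.71. Chance passes this value in about 1 in 20 groups. A cell was marked for 2 members in HL1cm. Both the lowest and the highest HL1cm were read for every member except Gja5, and the share over all genes is not given. Cdh2 in HL1cm5 was 36.2 FPKM against 23.4 to 26.2 FPKM in the other 4 cells, with a ratio of 0.74 on the log2 scale. Cdh11 in HL1cm4 was 8.88 FPKM, while the other 4 HL1cm were listed at 0. With 4 values at 0 the ratio is 1 for any gene seen in a single cell, so for Cdh11 it is no outlier test and the chance given above does not apply.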

How the results depend on the processing

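Depth is unknown from FPKM, and low values rest on the floor. With values under 10 FPKM set to 10, 2 members were higher in HL1cm (911 genes over the whole table, and 882 lower), and 0 members had every HL1cm below every mMSC, as also after TPM scaling (0). A call at a difference of 2 left 1099 genes higher and 1039 lower. With detection set at 10 FPKM, 2 members were in no HL1cm, as without HL1cm4 (range 1 to 2 when each HL1cm was left out). Members of mMSC-PC below every mMSC numbered 0 under TPM and 0 under median ratio scaling, and those above 1 under Gapdh scaling, where Cdh2 turned from 1.34 to -0.0895. Members of HL1cm-PC below every HL1cm numbered 0 under TPM and 3 under the median ratio (Gja1, Dsg2 and Ctnnb1), under Gapdh scaling the 1 below was Gja1 in place of Dsg2, and the number was 1 to 2 (2 without HL1cm3, HL1cm4 or HL1cm5) when each HL1cm was left out; those above numbered 4 to 5. The causes were not tested. Leaving out each HL1cm kept 4 members higher and 1 lower. TPM, median ratio and Gapdh scaling moved the median difference of all genes by -0.15, 0.15 and -0.14. Alternatives with the population controls under the median ratio and Gapdh, and with cells above 0 only, were chosen after seeing the data. No paired analysis was possible because the results come from no test and the replicate numbers only name cells.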
